A study of Homo sapiens with 2 samples.

Results

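The genes described here carry out V(D)J recombination, the cutting and rejoining of antigen receptor genes in developing lymphocytes. They are RAG1, RAG2, DNTT, DCLRE1C and LIG4, 5 of the 19974 protein-coding genes that the RefSeq gene table places on an autosome or chromosome X. Their peaks were taken as all deposited peaks that overlap a gene body or the 50 kb on either side of it. These windows held 27 of the 59631 peaks of the J76 list and 25 of the 85597 peaks of the 293T list. The windows of RAG1 and RAG2 overlap, so both genes are treated as 1 locus and each peak there was counted once.

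Open chromatin was assayed by ATAC-seq, in which the Tn5 transposase cuts accessible DNA and attaches sequencing adapters, on 50000 cells per reaction with a transposase made in the submitters' laboratory. J76 is labelled as an acute T-lymphoblastic leukemia line; it is a subline of Jurkat that lacks the alpha and beta chains of the T cell receptor. The other line is labelled T293 in the sample records and 293T in the protocol, an adherent line from human embryonic kidney that carries the SV40 large T antigen. Neither line received a treatment according to the labels, both were taken in logarithmic growth, and each is represented by 1 library. Without replicates, differences between the lines are described and not tested.

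In V(D)J recombination the RAG1 and RAG2 proteins form the endonuclease that recognises recombination signal sequences and cuts beside them, leaving hairpin-sealed coding ends. Artemis, the product of DCLRE1C, opens the hairpins, terminal deoxynucleotidyl transferase, the product of DNTT, adds nucleotides without a template, and DNA ligase IV, the product of LIG4, seals the joint. The RAG genes and DNTT are known to be expressed in immature lymphocytes, whereas Artemis and ligase IV also serve non-homologous end joining, the general repair of double-strand breaks, in most cell types.

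The labelled lines were checked at marker genes. The measure was a peak within 1 kb of a listed start. For CD3E, MS4A1, LHX1 and SALL1 no start is listed and both gene ends were used, so a peak there need not mark a start. Of 6 T lineage genes, 5 (CD3E, CD3D, CD28, LCK and PTPRC) had such a peak in J76 and none in 293T. CD2 had none in either line. None of the 3 B lineage genes CD79A, MS4A1 and PAX5 had such a peak in either line. Of 5 kidney and epithelial genes, WT1, LHX1, SALL1 and TJP1 had a peak in 293T only and CAV1 had one in both. The lists give no read counts, so their depth is unknown, and a peak that is not listed does not show that a site was closed.

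At their starts the 5 genes fell into different states. A start peak is a peak that overlaps 1 kb on either side of a start listed in the RefSeq promoter table, and the fold is the authors' enrichment of a peak over background at its summit. RAG1, DCLRE1C and LIG4 had a start peak in both lines, a state found at 63.5% of the 15812 protein-coding genes with a listed start (10045 genes). At RAG1 and LIG4 the peak at the outermost start also covers the start of a neighbour, TRAF6 and ABHD13 respectively. For RAG1, which has no other listed start, the state rests on that position alone and is not assigned to RAG1 over TRAF6. A promoter of RAG1 known to lie close to its coding exon is not among the listed starts and was not scored. RAG2 had one in J76 only, a state of 3.35% of genes (529 genes). DNTT had none in either line, a state of 24.9% of genes (3930 genes). No member had a start peak in 293T only, the state of 8.27% of genes.

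The sequences just before the starts are shown because the starts of RAG2 and DNTT differ in base composition from those of RAG1 and LIG4. Each is from RefSeq (GRCh38.p14), 5′ to 3′ in the direction of the named gene and ending 1 base before its start, with capitals marking matches to the motifs given below. The stretches are chr11:36598237-36598486 (minus strand) for RAG2, chr10:96304184-96304433 (plus) for DNTT, chr11:36510273-36510352 (plus) for RAG1, chr13:108218350-108218391 (minus) for LIG4 and chr11:36594352-36594501 (plus) for IFTAP, a neighbour that starts inside RAG2. The RAG1 and LIG4 stretches are short because they are all that lies between each gene and the divergent neighbour behind it, TRAF6 and ABHD13.
RAG2: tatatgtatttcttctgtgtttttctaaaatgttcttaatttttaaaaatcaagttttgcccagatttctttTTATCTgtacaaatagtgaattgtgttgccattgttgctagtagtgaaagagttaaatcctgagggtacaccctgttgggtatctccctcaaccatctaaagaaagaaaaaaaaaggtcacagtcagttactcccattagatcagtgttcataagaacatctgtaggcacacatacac
DNTT: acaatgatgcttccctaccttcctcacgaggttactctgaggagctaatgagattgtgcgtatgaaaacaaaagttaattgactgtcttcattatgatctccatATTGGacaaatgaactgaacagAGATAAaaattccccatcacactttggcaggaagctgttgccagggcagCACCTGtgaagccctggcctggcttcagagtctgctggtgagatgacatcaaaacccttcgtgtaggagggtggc
RAG1: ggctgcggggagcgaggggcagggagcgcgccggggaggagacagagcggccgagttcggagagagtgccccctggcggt
LIG4: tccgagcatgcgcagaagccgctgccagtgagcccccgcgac
IFTAP: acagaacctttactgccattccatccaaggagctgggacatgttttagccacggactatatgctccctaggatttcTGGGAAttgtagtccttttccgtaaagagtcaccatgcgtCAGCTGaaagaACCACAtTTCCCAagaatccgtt

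RAG2 and DNTT start in DNA with few CpG dinucleotides. In the 250 bases before the outermost listed start, RAG2 had 0 CpG and a GC content of 34.0%, and DNTT had 3 CpG and 46.4%. RAG1 had 25 CpG (70.0% GC) and LIG4 28 (72.0% GC), against a median of 17 over the 15812 genes. DCLRE1C had 6 CpG before its outermost start but 22 before its second listed start, which lies nearer to the peak summits. Genes with 0 to 4 CpG had a peak within 1 kb of the outermost start in 14.4% of cases in J76 and 16.8% in 293T (3203 genes), and 5.18% had one in J76 only. With 20 or more CpG the shares were 87.9% and 93.4% (6775 genes), and 1.55% had one in J76 only. The start states of RAG1, LIG4 and DNTT are thus the ones held by most genes of their own CpG class, whereas those of RAG2 and DCLRE1C are not. For RAG1 this rests on the peak that also covers the TRAF6 start. The CpG of RAG1 were counted before that listed start, largely inside TRAF6, and not at the promoter close to its coding exon. With 5 to 9 CpG, the class of DCLRE1C by its outermost start, 32.8% of genes had a peak in both lines.

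**Figure D1:**
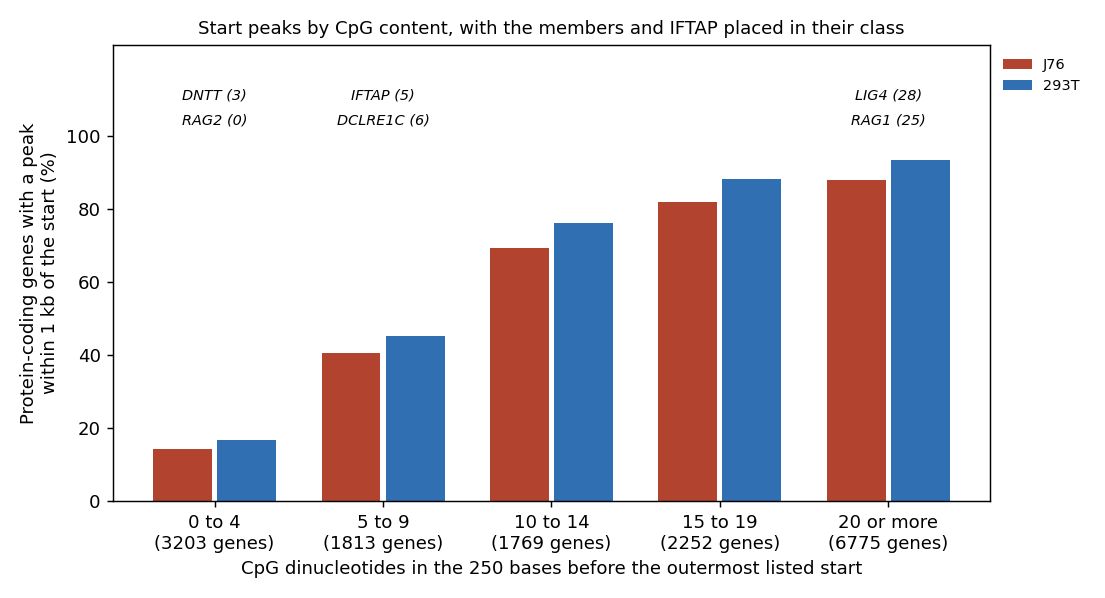
Percentage of protein-coding genes with a peak within 1 kb of the outermost listed start (y axis, linear) in J76 (red bars) and 293T (blue bars), by the number of CpG dinucleotides in the 250 bases before that start (x axis). Member genes and IFTAP are written above their class with their CpG count; DNTT and RAG2 stand in the class where 14.4% and 16.8% of genes had a peak, RAG1 and LIG4 in the class with 87.9% and 93.4%.

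Motifs were searched on both strands of these 250 bases, by exact letters. A GATA sequence (AGATAA or TGATAA), the core bound by GATA factors, was present before RAG2, with its first letter 178 bases before the start, and before DNTT at 124 bases; it occurs in 10.9% of the 15812 promoters. DNTT also held an E box (CAGCTG or CAGGTG, 27.7% of promoters) and CCAAT (34.4%). Before RAG1 there were a GC box (GGGCGG, 55.8%) and an E box, both inside TRAF6 and outside the stretch printed. LIG4 had CCGGAA, an ETS core (19.2%), and TGGGAA, an Ikaros core (20.3%), both inside ABHD13 and outside the stretch printed. The RUNX core TGTGGT (9.12%) was before none of the outermost member starts, and TATAAA (9.36%) only before that of DCLRE1C. The J76 start peak of RAG2 covered 102 of the 250 bases printed, the ones next to the gene, and the GATA letters lie outside it. A match describes these letters and shows no binding.

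**Figure D2:**
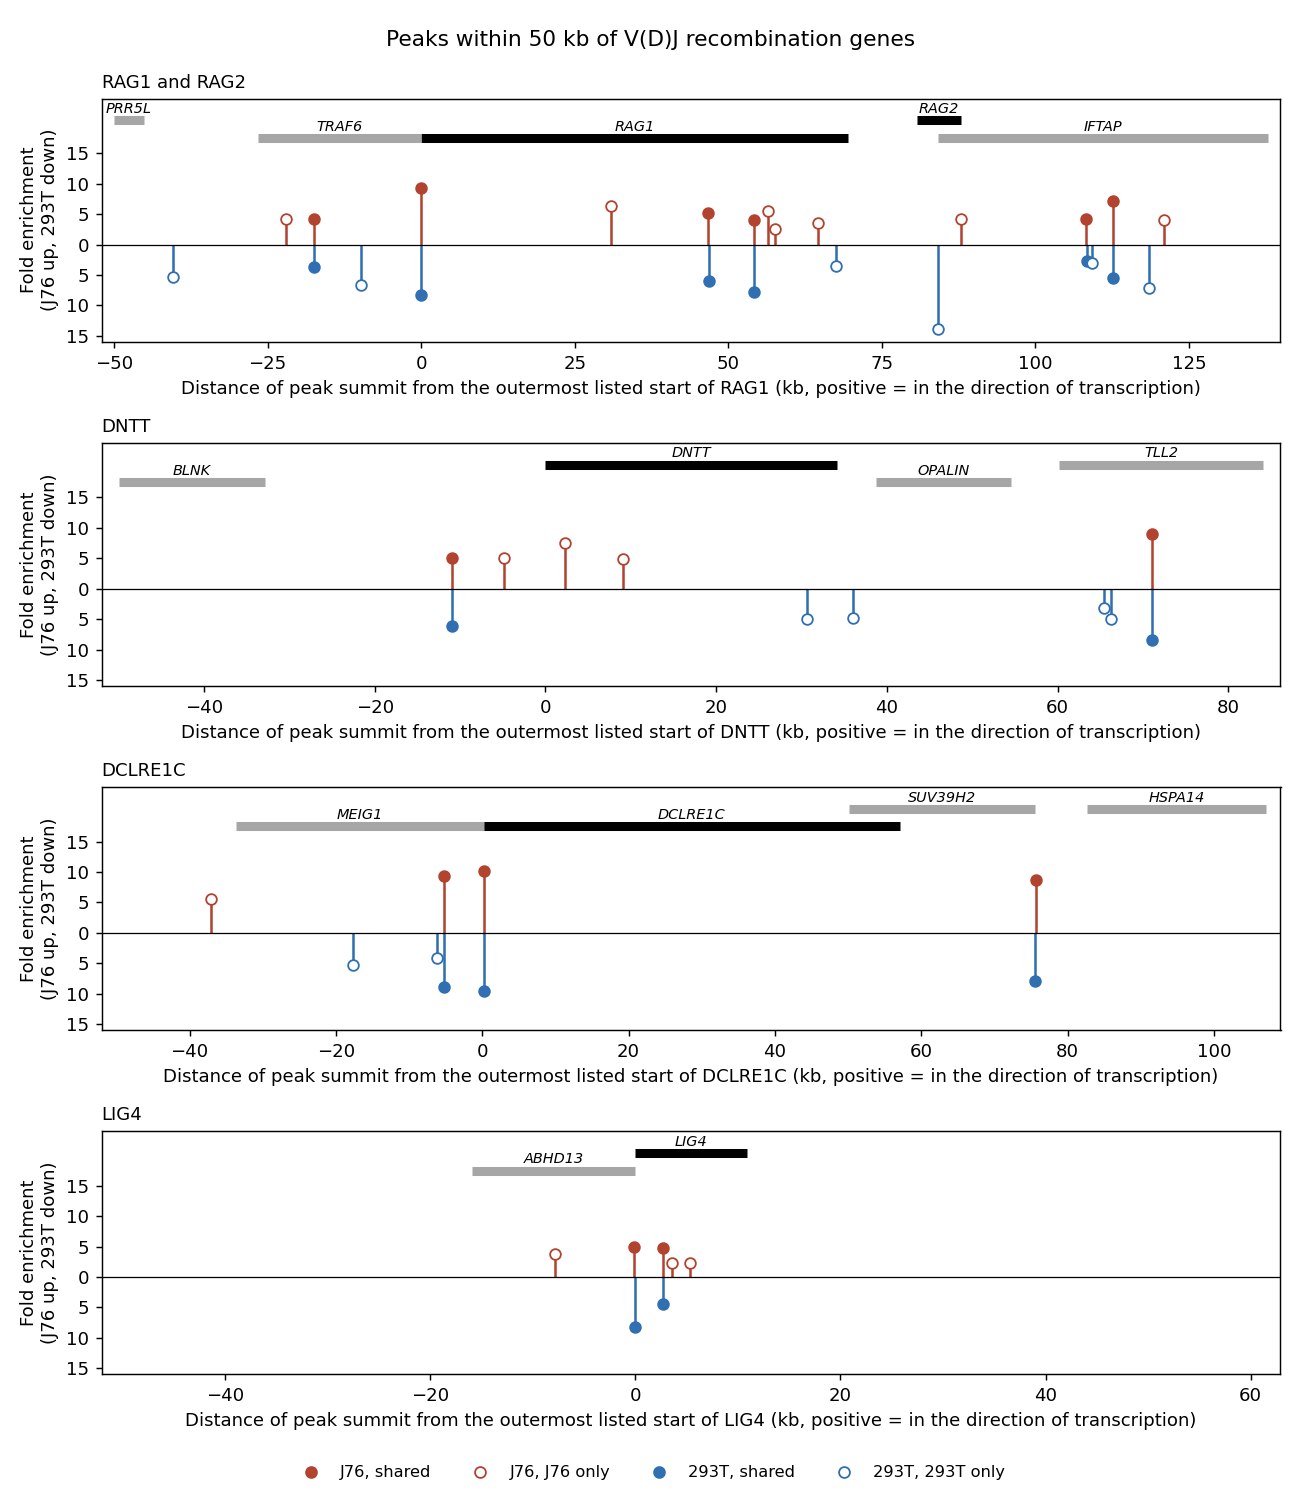
Peaks in the windows of the member genes, placed by summit distance in kb from the outermost listed start of the gene named under each panel (x axis), with the authors' fold enrichment upwards for J76 (red) and downwards for 293T (blue) on linear axes. Filled points are peaks that overlap a peak of the other line and open points are peaks of 1 line only; black bars are member genes and grey bars other protein-coding genes. In the top panel J76-only peaks lie in the far part of RAG1 and at the RAG2 start, and the 293T-only peak of fold 13.8 stands at the IFTAP start inside RAG2.

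The RAG locus on chromosome 11 held 13 J76 peaks and 12 293T peaks, of which 6 in each line were shared, that is, had 1 bp or more in common with a peak of the other line. RAG1 (Entrez gene 5896, chr11:36510353-36579762, plus strand) spans 69.4 kb, and RAG2 (gene 5897, chr11:36590996-36598236, minus strand) spans 7.24 kb, so the genes converge. At the listed start of RAG1 J76 had a peak of fold 9.24 (chr11:36509311-36510678, −log10 q 84.0) and 293T a peak of fold 8.24 (chr11:36508873-36510810, −log10 q 80.4). The summits fell on the same base, 33 bases before RAG1 and within the 80 bases printed above. The start of TRAF6, a ubiquitin ligase of innate immune and cytokine signalling, lies 48 bases from that summit on its other side, so this peak is not assigned to either gene.

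Overlapping the body of RAG1, J76 listed 7 peaks and 293T 4, each count including the peak at the listed start that also covers the TRAF6 start. Of the J76 peaks, 4 had no 293T counterpart. Their folds were 6.27 at chr11:36541068-36541363, 5.55 at chr11:36566700-36567063, 2.58 at chr11:36567734-36568091 and 3.51 at chr11:36574569-36575002. The last 3 stand in the last part of the gene, between 56.5 and 64.6 kb from the listed start, and the first pair of these is separated by 670 bp. The fold of 5.55 was at percentile 60.7 of the J76 list and that of 2.58 at percentile 2.1, so the strengths within this group differed widely. The peaks of fold 2.58 and 3.51 had −log10 q of 3.91 and 3.79, against 15.8 and 25.4 for those of fold 6.27 and 5.55. The count of 4 includes these weak calls. In 4.01% of all protein-coding genes, and in 3.48% of the 5837 genes within a factor of 2 of the length of RAG1, the body held 4 or more J76-only peaks, a threshold set at the count of RAG1 after it was seen. RAG1 is known to be transcribed in lymphocytes from a promoter close to its coding exon. The gene has 8 transcripts and 1 listed start, and that start is not this promoter. Exon positions were not used here, so whether any of the J76-only peaks lies at that promoter was not examined.

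The 293T list had 1 peak of its own inside RAG1, a weak one of fold 3.55 at chr11:36577876-36578075 (percentile 29.5 of its list). A shared site inside RAG1 had different ranks in the lists, which differ in length, so that ranks show no change. At chr11:36564437-36564912 the J76 fold was 4.06, percentile 34.8 of the J76 list, and the 293T peak at chr11:36564420-36564915 had fold 7.72, percentile 85.3 of the 293T list, with the summits 3 bp apart. Apart from the peaks at the listed start, the other shared pair in the gene, at chr11:36556997-36557228 in J76, had folds of 5.27 and 6.05.

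At RAG2 the lines had different peaks a few kilobases apart. J76 had a peak of fold 4.23 at chr11:36598090-36598338 (−log10 q 8.48), with its summit 16 bases before the RAG2 start, and 293T had no peak within 3166 bp of that start. This J76 peak is of moderate rank, at percentile 39.0 of its list by fold and 41.5 by −log10 q, and its −log10 q is under 10. 293T had a peak of fold 13.8 at chr11:36594195-36595070 (−log10 q 101), at percentile 99.8 of its list by fold, and J76 had none there. This peak lies in the body of RAG2 but covers both listed starts of IFTAP, a gene of intraflagellar transport that runs in the opposite direction, with its summit 57 bases from the outermost one. The gap between the J76 peak and this 293T peak was 3019 bp. A count of peaks by gene body would give RAG2 1 peak in each line, and the positions show that these are the start of RAG2 in J76 and the start of IFTAP in 293T.

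The flanks of the RAG locus held further peaks of both kinds. Beyond RAG2, within IFTAP, a shared site at chr11:36622823-36623115 had folds of 7.10 in J76 and 5.46 in 293T, and 293T alone had a wide peak of 1272 bp at chr11:36628259-36629530 with fold 7.19. On the TRAF6 side 293T alone had a peak of fold 6.68 at chr11:36500341-36500762. In the window of RAG1 each line had 6 peaks of its own. In that of RAG2, J76 had 6 and 293T 4. More J76-only than 293T-only peaks were found in 29.7% of all gene windows made in the same way, and the reverse in 53.6%. The start of PRR5L, whose end reaches into the window, lies outside it.

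DNTT (gene 1791, chr10:96304434-96338564, plus strand), the transferase gene, had no peak at its start, but J76 peaks stood on both sides of it. In J76 the nearest peak began 2136 bp after the start, at chr10:96306570-96307088, with fold 7.49 (−log10 q 23.0, percentile 78.9 of the list by fold). J76 alone also had peaks at chr10:96299414-96299823 (fold 5.06), with the summit at −4.87 kb from the start, and at chr10:96313436-96313684 (fold 4.95), 9.14 kb after the start. In 293T the nearest peak to the start was 10.6 kb away, and it was shared with J76 (folds 4.98 in J76 and 6.05 in 293T, at chr10:96293352-96293656 in J76). All 3 J76-only peaks of the window thus lay within 10 kb of the DNTT start and none of the 293T-only peaks did. The distance of 10 kb was set after the positions were seen. How many other genes have such an arrangement was not counted.

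The 293T-only peaks of the DNTT window, 4 in all, lay towards and beyond the far end of the gene. Their folds ran from 3.23 to 5.01. The strongest was inside DNTT, at chr10:96334946-96335245 (5.01), 30.7 kb after the start. Another, of fold 4.80, was at chr10:96340416-96340622, and the remaining pair lay in TLL2, a metalloprotease gene, with fold 5.00 for the stronger at chr10:96370194-96370905. TLL2 also held the strongest site of the window, shared, with folds of 9.08 in J76 and 8.46 in 293T and summits 2 bp apart (chr10:96375049-96375668 in J76). OPALIN, an oligodendrocyte gene, and BLNK, a B cell adaptor gene, had no start peak in either line. In total the window held 5 J76 peaks and 6 293T peaks, against medians of 5 and 6 over all gene windows.

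DCLRE1C (gene 64421, chr10:14897359-14954432, minus strand), which encodes Artemis, had its start peak in both lists. The start peak had fold 10.2 in J76 (chr10:14953520-14954552, −log10 q 71.5) and 9.50 in 293T (chr10:14953391-14954616, −log10 q 80.3), at percentile 93.6 of either list by fold. The summits were 6 bp apart and lay 68 and 62 bases from the second listed start, and 268 and 274 bases from the outermost one. No other peak was found in its body of 57.1 kb in either line. The gene MEIG1, which acts in sperm formation, overlaps the outermost start. Its body begins at base 14954228, inside the DCLRE1C start peak of both lines, so that peak is not assigned to DCLRE1C alone. The listed start of MEIG1 lies elsewhere and had a shared peak with folds of 9.38 in J76 and 8.88 in 293T (chr10:14959170-14960219 in J76). The window's other shared peak was at the start of SUV39H2, a histone H3 lysine methyltransferase gene, and its divergent transcript SUV39H2-DT (folds 8.75 and 7.94, chr10:14877881-14879566 in J76).

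Few peaks in the DCLRE1C window belonged to 1 line. J76 alone had fold 5.52 at chr10:14991408-14991768, and 293T alone had fold 4.07 at chr10:14960403-14960677 and fold 5.22 at chr10:14971991-14972235, all on the MEIG1 side. HSPA14, a chaperone gene that reaches into the window, has no entry in the promoter table.

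LIG4 (gene 3981, chr13:108207442-108218349, minus strand), the ligase gene, had 2 shared peaks near its 5 listed starts. The first, at chr13:108217796-108218888 in J76 (fold 4.88, −log10 q 47.0) and chr13:108217799-108219004 in 293T (fold 8.21, −log10 q 68.8), covers the outermost start and also that of ABHD13, a hydrolase-domain gene. By rank it stood at percentile 51.5 of the J76 list and 88.1 of the 293T list. The summits were 38 bp apart, and the 293T summit lay within the 42 bases printed above. The second covered 3 of the 4 inner starts in J76 and 1 of them in 293T, and had folds of 4.77 (chr13:108215199-108215885) in J76 and 4.41 (chr13:108215401-108215910) in 293T, near the middle of both lists (percentiles 49.0 and 51.8).

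The J76-only peaks of LIG4 were weak. Those in the gene body had folds of 2.25 (chr13:108214635-108214852), over the innermost listed start, and 2.36 (chr13:108212840-108213151), at percentiles 0.8 and 1.1 of the J76 list, and another at chr13:108226145-108226478, in ABHD13, had fold 3.73. 293T had no peak of its own in the window. Within 5 Mb on either side of LIG4 the lists held 101 J76 and 150 293T peaks, a 293T to J76 ratio of 1.49. Both counts are low beside the medians of 222 and 290 (lower quartiles 171 and 239) around all genes, and the part of this sparse region in the absence of 293T-only peaks was not tested. The same ratio was 1.11 around the RAG genes, 1.39 around DNTT and 1.28 around DCLRE1C, with a median of 1.19 (interquartile range 0.977 to 1.64) over all genes.

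Over the 5 genes together, 13 of the 27 J76 peaks were shared (48.1%, 95% Wilson interval 30.7 to 66.0) and 13 of the 25 293T peaks (52.0%, 33.5 to 70.0). Over the whole lists the shares were 52.3% and 36.0%. The intervals cover counting error only, and both include the value of the whole list. For 293T the lower bound is close to that value and moved with the flank. The 293T share was 60.0% (38.7 to 78.1) with flanks of 25 kb and 52.9% (36.7 to 68.5) with flanks of 100 kb. Peaks of the same window are not independent, and the windows are placed on genes whereas the whole list is not. Whether sharing differs from the whole list was therefore not tested. Shared summits in the windows were a median of 26 bp apart (0 to 102), against 25 bp over all 30696 shared J76 peaks. The median fold was 4.95 in J76 and 5.46 in 293T, against 4.83 and 4.38 over the lists.

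Other genes of the reaction had start peaks in both lines. The 21 genes described were a list chosen with earlier results known. They were the DNA-bending proteins HMGB1 and HMGB2 that assist RAG, the Ku proteins XRCC5 and XRCC6, and the kinases PRKDC and ATM. Further genes were the end-joining factors XRCC4, NHEJ1 and PAXX, the polymerases POLL and POLM, and the end-processing factors APTX and APLF. The rest were the break-signalling genes H2AX, MDC1, RNF8, TP53BP1, RIF1, MRE11, RAD50 and NBN. All 21 had a start peak in both lines, the state held by 63.5% of the 15812 genes with a listed start, and 0 had one in a single line. Folds ran from 5.50 to 12.9 in J76 (median 9.15) and from 5.44 to 14.1 in 293T (median 8.68). The highest J76 folds were at MRE11, a nuclease of break processing (12.9 in J76 and 10.3 in 293T), at XRCC4, the partner of ligase IV (11.3 and 14.1), and at RNF8, a ubiquitin ligase of the break response (11.3 and 9.77). POLL and POLM, the polymerases of the same family as DNTT, were named after their values were seen: POLM had folds of 9.03 and 10.7 and POLL of 5.59 and 11.4, whereas DNTT had no start peak. For 8 of the 21 a listed start of another gene lies within 1 kb, among them XRCC4 (TMEM167A) and MRE11 (ANKRD49). This is a minimum, because genes without a listed start could not be counted. For 4 of the 21 no start is listed and the gene ends were used.

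**Figure D3:**
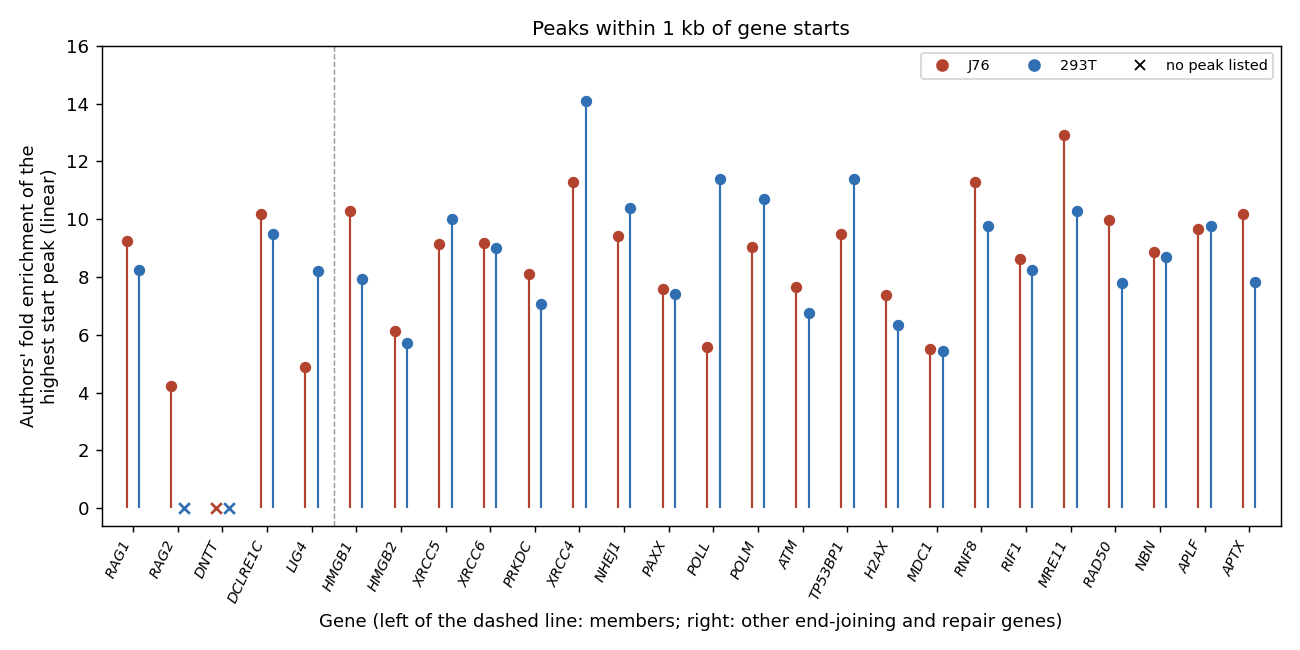
The authors' fold enrichment (y axis, linear) of the highest peak within 1 kb of the starts of each gene (x axis) in J76 (red) and 293T (blue), 1 library per line; crosses mark genes with no peak listed. Among the members left of the dashed line RAG2 has a J76 peak only (4.23) and DNTT has none, while all 21 genes on the right have a peak in both lines. The peaks drawn for RAG1 and LIG4 also cover the starts of TRAF6 and ABHD13.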

How the data were processed

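ATAC-seq peak lists of J76 and 293T, 1 library per line, were used. Per the submitters' processing notes Bowtie2 and MACS2 were run; for versions, settings and the treatment of duplicates and cut positions the sources used here have no entry. The lists were deposited as narrowPeak tables: the fold is the authors' linear ratio over background at the summit, the p-value and q-value were deposited as −log10 values, and the deposited integer score, which tracks the −log10 q, was not used. Folds describe peaks within a list and are also given as percentiles of that list.

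The build is not stated; contig names are those of GRCh38, and positions (from 1) are printed on that ground. Genes, starts (35116 listed promoters, 15812 of 19974 protein-coding genes) and sequences came from RefSeq tables of GRCh38.p14. The tables hold no exons. Overlap code was checked on simulated peaks. Python 3.11.15, pandas 2.3.3, NumPy 2.4.6 and SciPy 1.17.1 were used.

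Members and gene lists were chosen with earlier results of these data known; some list genes are not reported here. Named were all members, the protein-coding genes in their windows, the 3 listed genes with the highest J76 fold and any not open in both lines, and per window and class the 3 highest peaks (all, where a window has 10 or fewer); other peaks and genes were named after their values were seen.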

Additional observations from a re-analysis of the deposited data

How the results depend on the processing

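Of 47 comparisons of a count or share with its value under another setting, 44 stayed within the interval of the main share or within 1.5 times the main count. The check is a weak one, because those intervals are wide (30.7 to 66.0 in J76 and 33.5 to 70.0 in 293T). Some of the counts compared were also 0 under every setting. The settings were flanks of 25 or 100 kb, a minimum −log10 q of 5 or 10, lists of equal length, a reciprocal overlap of 50%, summits within 250 bp, and starts widened to 2.5 kb or narrowed to 500 bp. The other 3 were these. With a minimum −log10 q of 10 the J76 peaks in the windows fell from 27 to 16, and the members with a start peak in J76 only went from 1 to 0, because the RAG2 peak is below that threshold. With 2.5 kb on either side of a start the members with a start peak in J76 only rose from 1 to 2, because the nearest J76 peak of DNTT then counts. RAG1, DCLRE1C and LIG4 had a start peak in both lines under every setting of q, list length and start width tried, as did all 21 other genes described under those run for them. With equal list lengths the shares of shared peaks were 40.7% in J76 and 55.0% in 293T. The lower bound of the 293T interval was 33.5% with flanks of 50 kb, 38.7% with 25 kb and 36.7% with 100 kb. The whole-list share was 36.0%, and a difference from it was not tested. No paired analysis was possible because each line has 1 library. The lists hold no depth, so the weakest peaks named here, those in LIG4 and RAG1 with folds under 3, carry no precision beyond the authors' q.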

Other observations

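The 150 bases printed for IFTAP hold, on the strand opposite to the gene, the letters ACTACAATTCC, part of the sequence known to be bound by the zinc finger protein ZNF143. They were searched after the sequence had been seen, and they overlap the TGGGAA marked there in capitals. Of the 15812 promoters, 58 held these letters (0.367%), and 0 of the 5 member genes did. Of those 58, 55 had a peak within 1 kb of the outermost start in both lines (94.8%), 3 had one in 293T only, IFTAP among them, and 0 had one in J76 only. IFTAP is thus one of few promoters with these letters for which J76 lists no peak. Over all 15812 promoters the same measure gave 61.3% with a peak in each list, and 8.44% where 293T alone had one. The 3 promoters are 5.17% of the 58, so the state of IFTAP was not more frequent among promoters with these letters than over all. Whether the letters bear on that state was not tested.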
